A study of Mus musculus with 48 samples.

Results

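RNA was sequenced from the jejunum, which lies between duodenum and ileum in the small intestine, of control mice at 2 circadian times, CT9 and CT5, with 4 libraries at each time out of 47 libraries analysed in all. Circadian time (CT) gives the hour within the cycle that the animals keep by themselves when no light sets it. In mice, which are active at night, CT5 lies near the middle of the rest phase and CT9 lies later in it. Libraries were taken by genotype and time as their labels give them. The control, labelled bmal1fl/fl, carries floxed alleles of Bmal1, a core clock gene whose symbol is Arntl. The knockout, labelled Bmal1iec-/-, was sampled at the same times (3 libraries at CT9, with 1 more not analysed here, and 4 at CT5) and serves for a test of whether the change differed between genotypes. Both genotypes were sampled in constant darkness. Samples are whole jejunal tissue, so muscle, connective tissue and immune cells are present beside the epithelium, and fewer cells of a type cannot be told apart from less RNA per cell. Strain, age, sex, the driver of the deletion and the source of each library are not given in the labels. The p-values therefore cover no more than the spread among these libraries, which may be technical.

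In the mammalian clock the proteins BMAL1 and CLOCK, or CLOCK's paralog NPAS2, bind E-box sequences and raise transcription of the period (Per) and cryptochrome (Cry) genes, whose products then repress the pair. A second loop joins them: REV-ERB nuclear receptors (Nr1d1 and Nr1d2) repress Arntl, and ROR receptors raise it through the same DNA element. The factors DBP, TEF and HLF pass the rhythm on through D-box sequences. In the small intestine, transport and digestion of nutrients vary over the day.

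The 8 libraries held 5.94 to 6.06 M counts at CT9 and 5.12 to 5.61 M counts at CT5, and these ranges did not overlap. Mitochondrial genes took 3.74% to 4.61% of counts at CT9 and 4.18% to 5.03% at CT5. Values are given as CPM, counts per M counts in the genes tested, after scaling of the libraries by TMM. A count of 0 allows up to 0.495 to 0.505 CPM at CT9 and 0.535 to 0.585 CPM at CT5 (3 counts, counting error only). These limits are per M of all counts of a library, before scaling by TMM, so they only approximate the CPM used here. Libraries of a group differed by more than sampling noise, so none was a copy of another. None of the 8 was among 5 libraries of other groups that stood apart in the spread of their values (1 of control CT21, 3 of knockout CT1 and 1 of knockout CT21), which share in the estimate of spread. The running numbers in the sample titles fall in separate ranges for CT9 and CT5, what they number is not stated, and an effect of it cannot be told apart from time. In B cell transcripts 1 of the 8 differed from the rest: in control CT9 replicate 1 the 10 measured genes of a B cell follicle list summed to 395 CPM, against 16.5 to 31.5 CPM in the other CT9 libraries and 17.7 to 21.2 CPM at CT5.

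Genes of the clock led a small set that changed by CT9, with the 3 period genes, Ciart, Dbp, Hlf and Tef higher and Arntl and Npas2 lower. Beside them, transporters of the enterocyte moved in both directions, among them the glucose transporter Slc5a1 (higher) and the phosphate transporter Slc34a2 (lower). The digestive enzyme gene Mgam was higher. Of 15646 genes tested, 99 passed (0.633%), 50 higher at CT9 (0.32%) and 49 lower (0.313%), in edgeR's quasi-likelihood test with Benjamini-Hochberg adjustment over all genes and a threshold of 0.05. Fold changes are log2 values of CT9 over CT5. Of the 50 genes, 43 were at least 1.5-fold and 18 at least 2-fold higher, with a median of 0.81. Of the 49, 40 were at least 1.5-fold and 23 at least 2-fold lower, with a median of −0.91. The median over all genes was 0.01. In 44 of the 50 and 44 of the 49 the 4 libraries of CT9 did not overlap the 4 of CT5; over all genes 3.98% lay wholly higher and 3.23% wholly lower at CT9. The counts depended on the libraries that shared in the estimate of spread. Without the 5 libraries that stood apart, 158 genes were higher (1.01%) and 172 lower (1.1%), among them 49 of the 50 and 48 of the 49. Leaving out single libraries of the 8 gave 26 higher genes without control CT5 replicate 2, 85 without control CT9 replicate 4, and 34 to 58 lower genes.

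Among the clock activators, Arntl and Npas2 fell, and Clock and Rora did not pass. Arntl (ENSMUSG00000055116.8, chromosome 7, 113207465 to 113314126, plus strand of mm10) had 11.3, 8.48, 11.3 and 10.6 CPM in the CT9 libraries, against 29.99, 25.8, 30.9 and 34.9 CPM at CT5. Every CT9 library lay below every CT5 library, and Arntl fell (log2 fold change −1.54, SE 0.15, adjusted p = 1.7e-09, edgeR). Npas2 had 24.5, 16.8, 11.5 and 23.9 CPM at CT9 and 37.4, 45.6, 39.05 and 41.6 CPM at CT5, again without overlap (log2 fold change −1.09, SE 0.16, adjusted p = 4.0e-05). Clock itself, with 89.1, 86.9, 87.99 and 102 CPM at CT9 and 99.8, 80.5, 89.2 and 92.9 CPM at CT5, gave 0.01 and did not pass. The receptor gene Rora was at −0.23 (adjusted p = 0.916, edgeR).

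A start of Arntl is shown because its window holds the element bound by ROR and REV-ERB receptors. In capitals is TAGGTCA, whose first base lies 30 bases after the start site (RefSeq, GRCm38.p6, chr7:113207261-113207560, plus strand, 5′ to 3′, 250 bases before to 50 after the start).
Arntl: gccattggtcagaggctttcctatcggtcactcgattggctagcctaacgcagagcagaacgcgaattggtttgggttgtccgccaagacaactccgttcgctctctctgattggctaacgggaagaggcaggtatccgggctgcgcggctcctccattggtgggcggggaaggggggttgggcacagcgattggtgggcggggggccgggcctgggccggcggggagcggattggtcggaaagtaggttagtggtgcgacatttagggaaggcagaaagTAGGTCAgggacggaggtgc

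Of the 10 clock repressors, 6 rose and none fell, with a median of 1.26. Ciart, which encodes a repressor of the CLOCK and BMAL1 pair, showed the largest change of the clock genes. It had 14.3, 14.8, 12.6 and 11.6 CPM at CT9, against 1.13, 0.8597, 0.737 and 0.363 CPM at CT5 (log2 fold change 4.07, SE 0.31, adjusted p = 1.9e-12, edgeR). The CT5 libraries lay close to the limit that a count of 0 allows, while every CT9 library lay far above it. All 3 period genes rose, without overlap between the groups. Per1 had 54.3, 61.6, 56.7 and 43.6 CPM at CT9 and 11.9, 13.1, 22.1 and 8.35 CPM at CT5 (1.96, SE 0.28, 1.4e-05). Per2 had 65.8, 88.1, 60.7 and 95.3 CPM at CT9 and 35.8, 19.1, 26.2 and 19.1 CPM at CT5 (1.63, SE 0.27, 3.5e-04). Per3 had 68.5, 70.2, 71.9 and 53.4 CPM at CT9 and 14.9, 14.8, 19.5 and 17.1 CPM at CT5 (1.99, SE 0.19, 7.4e-10). The narrow CT5 range of Per3 sets it apart from Per1, whose CT5 replicate 3 was higher than the rest.

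Bhlhe41 (DEC2), an E-box repressor, rose from a low level, with 3.54, 3.22, 3.83 and 1.85 CPM at CT9 and 0.754, 0.516, 0.737 and 1.45 CPM at CT5 (1.83, adjusted p = 0.00123, edgeR). Its paralog Bhlhe40 was at 0.10 and did not pass. Nr1d2 (REV-ERBβ) rose, with 159.6, 151, 140.2 and 140.4 CPM at CT9 and 63.8, 79.95, 80.7 and 94.4 CPM at CT5 (log2 fold change 0.89, SE 0.21, adjusted p = 0.0213). Nr1d1 (REV-ERBα) had 192, 111, 119 and 117 CPM at CT9 and 130.5, 133, 157 and 147 CPM at CT5, groups that overlap, at −0.07. Nr1d1 overlaps Thra on the opposite strand, and whether the counting used strand is not given in the sources used here. The call of Nr1d2 ended without any one of control CT5 replicates 1, 2 and 3 and control CT9 replicates 1 and 2 (adjusted p = 0.0593 to 0.101). Neither cryptochrome gene passed: Cry1 was at 0.60 (adjusted p = 0.305), with 19.1, 20.02, 14.1 and 27.3 CPM at CT9 and 16.03, 12.04, 15.5 and 9.44 CPM at CT5, and Cry2 at 0.40 (0.321).

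**Figure D1:**
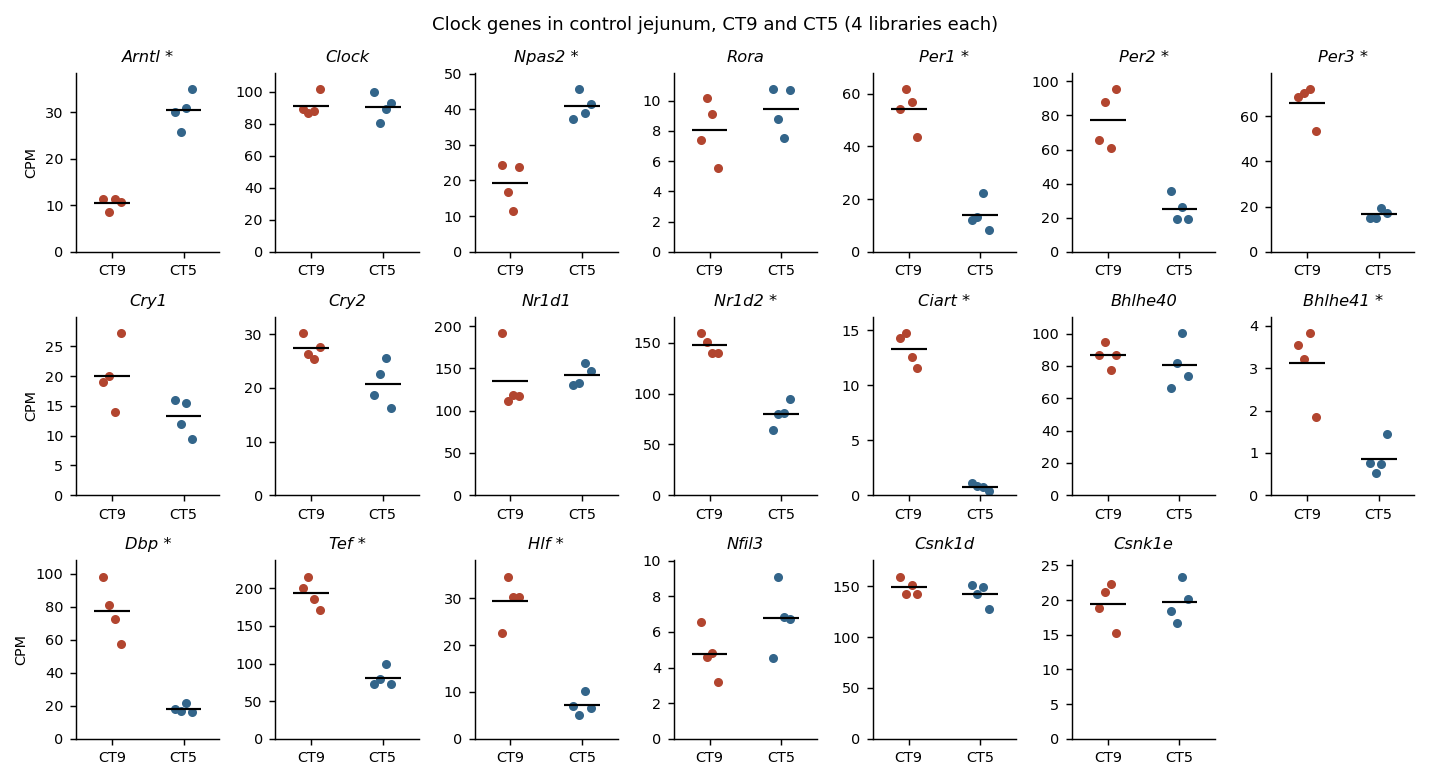
CPM of 20 clock genes in control jejunum, CT9 left (red) and CT5 right (blue); each point is 1 library, bars are means of 4 libraries, and a star marks an adjusted p under 0.05 (edgeR). Ciart, the period genes, Dbp, Hlf and Tef are higher in every CT9 library, Arntl and Npas2 lower, and Clock, Bhlhe40, Csnk1d and Csnk1e overlap.

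Of the 6 output factors and kinases, the 3 PAR bZIP factors rose and none fell. Dbp had 98.2, 80.8, 72.7 and 57.2 CPM at CT9 and 18.3, 16.7, 21.7 and 16.3 CPM at CT5 (log2 fold change 2.08, SE 0.18, adjusted p = 6.6e-11, edgeR), and it overlaps Sphk2 on the opposite strand. Hlf had 22.6, 34.6, 30.2 and 30.3 CPM at CT9 and 6.98, 5.16, 10.1 and 6.53 CPM at CT5 (2.03, SE 0.20, 1.7e-09). Tef, the most abundant of the 3 in CPM, had 200.1, 216, 186 and 172 CPM at CT9 and 72.4, 78.9, 98.9 and 72.96 CPM at CT5 (1.26, SE 0.13, 3.3e-09). In each of them the lowest CT9 library exceeded the highest CT5 library. Nfil3, which represses through the same D-box, was at −0.51 and did not pass (0.629). The kinases Csnk1d and Csnk1e, which phosphorylate period proteins, were at 0.06 and −0.02.

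Promoter windows of 4 genes that rose are shown for the E-box CACGTG and the D-box TTATGNAA they hold, in capitals, from 250 bases before to 50 after a RefSeq start (GRCm38.p6, 5′ to 3′). A gene can have more than 1 such start, and each window was picked because it holds a motif. That of Per1 lies inside the gene, which begins at 69095217 on the plus strand. Ciart (chr3:95882179-95882478, minus strand) has E-boxes that begin 116, 58 and 44 bases before the start. Per1 (chr11:69098699-69098998, plus strand) has an E-box 166 and a D-box 24 bases before it. Per3 (chr4:151044616-151044915, minus strand) has D-boxes 205 and 158 bases before it, and Tef (chr15:81802423-81802722, plus strand) an E-box 127 bases before it.
Ciart: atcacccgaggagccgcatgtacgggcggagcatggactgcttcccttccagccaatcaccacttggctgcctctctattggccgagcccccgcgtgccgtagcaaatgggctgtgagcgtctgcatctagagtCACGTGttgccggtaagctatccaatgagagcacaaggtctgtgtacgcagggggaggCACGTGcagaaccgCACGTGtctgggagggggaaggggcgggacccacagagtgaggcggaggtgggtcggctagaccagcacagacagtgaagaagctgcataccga
Per1: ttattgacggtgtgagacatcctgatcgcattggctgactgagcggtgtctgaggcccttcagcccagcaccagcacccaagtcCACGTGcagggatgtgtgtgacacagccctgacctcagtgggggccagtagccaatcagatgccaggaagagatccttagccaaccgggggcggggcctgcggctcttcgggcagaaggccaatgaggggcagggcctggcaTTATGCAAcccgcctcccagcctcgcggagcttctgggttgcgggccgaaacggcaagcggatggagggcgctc
Per3: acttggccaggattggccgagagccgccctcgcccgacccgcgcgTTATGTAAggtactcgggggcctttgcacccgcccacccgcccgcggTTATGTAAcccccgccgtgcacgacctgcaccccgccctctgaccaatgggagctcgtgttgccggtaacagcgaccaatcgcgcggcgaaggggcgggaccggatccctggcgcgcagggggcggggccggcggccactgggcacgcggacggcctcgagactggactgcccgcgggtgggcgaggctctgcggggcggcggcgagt
Tef: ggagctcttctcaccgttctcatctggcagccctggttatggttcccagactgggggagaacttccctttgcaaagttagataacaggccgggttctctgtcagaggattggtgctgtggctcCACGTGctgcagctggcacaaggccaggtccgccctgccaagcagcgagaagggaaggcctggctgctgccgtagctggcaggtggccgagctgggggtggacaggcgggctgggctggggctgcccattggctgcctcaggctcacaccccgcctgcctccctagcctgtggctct

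Motifs were read on both strands and did not overlap one another in these windows. Over all windows of this length, 7.15% of 32851 held CACGTG, as did 11.3% of the 11001 tested genes with a window. A gene can have several windows, so the share of genes cannot be set against the share of windows. Of the genes that rose, 38 had a window and 11 held CACGTG (28.9%): Bhlhe41, Ciart, Cipc, Per1 and Tef of the clock, the transporter genes Slc5a1 and Slc20a1, Mgam, Anxa7, Coq10b and 1700001L05Rik. Of the genes that fell, 3 of 35 held it (8.57%). The D-box stood in 3 of 38 genes that rose (7.89%: Coq10b, Per1 and Per3) and 4 of 35 that fell (11.4%), against 2.58% of tested genes. TAGGTCA stood in 1 of 38 and 2 of 35 (Arntl and G6pc), against 2.45%. These counts are descriptions, without a test.

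Of 11 measured clock-linked output genes, 3 rose and none fell. Usp2, a deubiquitinating enzyme (ENSMUSG00000032010.15, chromosome 9, 44067021 to 44095627, plus strand), had 72.4, 80.1, 78.2 and 72.5 CPM at CT9 and 43.01, 26.99, 36.8 and 37.4 CPM at CT5 (log2 fold change 1.07, SE 0.15, adjusted p = 9.5e-06, edgeR). Nampt, which makes the NAD precursor nicotinamide mononucleotide, had 128, 152, 124 and 129 CPM at CT9 and 79.03, 79.1, 86.03 and 84.8 CPM at CT5 (0.69, adjusted p = 0.0213). Wee1, a kinase that holds back mitosis, had 27.2, 32.8, 24.6 and 30.5 CPM at CT9 and 19.2, 17.02, 21.2 and 15.1 CPM at CT5 (0.66, adjusted p = 0.0128). None of these overlapped between the times. The calls ended without control CT5 replicate 2 for both Nampt (0.101) and Wee1 (0.0804), without control CT9 replicate 2 for both (0.104 and 0.0769) and without control CT5 replicate 4 for both (0.0607 and 0.103). That of Nampt also ended without control CT5 replicate 1 or 3.

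Transporters of the enterocyte brush border and of the basal membrane moved in both directions. Of 18 genes of epithelial ion transport, 4 rose and 1 fell. Slc34a2, the sodium-phosphate cotransporter NaPi-IIb of the brush border (ENSMUSG00000029188.14, chromosome 5, 53038081 to 53071664, plus strand), had 46.6, 38.2, 29.5 and 55.05 CPM at CT9, against 200.5, 493, 298 and 314 CPM at CT5. The groups lay far apart, and Slc34a2 fell (log2 fold change −2.95, SE 0.28, adjusted p = 1.7e-09, edgeR). This was the largest fall among genes that passed with a symbol, a mean of at least 5 CPM and groups that did not overlap. A second phosphate transporter, Slc20a1, rose, with 72.6, 63.6, 44.6 and 53.7 CPM at CT9 and 31.5, 30.6, 39.97 and 31.9 CPM at CT5 (0.81, adjusted p = 0.00361). Slc13a1, a sodium-sulfate cotransporter, had 57.7, 106, 70.3 and 80.97 CPM at CT9 and 14.2, 21.1, 28.4 and 14.3 CPM at CT5 (log2 fold change 2.01, SE 0.28, adjusted p = 1.4e-05). Atp1b1, a subunit of the sodium pump picked after its values were seen, was at 0.59 (adjusted p = 0.0337).

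Sugar genes followed: of 15 that digest or carry sugars, 2 passed as higher and 1 as lower. Slc5a1 (SGLT1), which takes up glucose and galactose with sodium, had 4435, 4939, 3922 and 4224 CPM at CT9 and 2851, 2474, 2873 and 2710 CPM at CT5 (log2 fold change 0.68, SE 0.14, adjusted p = 0.00327, edgeR). Mgam, the starch-digesting maltase-glucoamylase, had 6370, 7279, 5750 and 5940 CPM at CT9 and 3862, 2933, 3795 and 3753 CPM at CT5 (0.82, adjusted p = 0.0123). The CT9 libraries of both genes lay wholly above the CT5 libraries. G6pc, the glucose-6-phosphatase that releases glucose, had 7.26, 16.6, 11.5 and 30.8 CPM at CT9 and 27.4, 37.8, 50.3 and 39.02 CPM at CT5; the groups overlapped through control CT9 replicate 4, and it fell (−1.22, adjusted p = 0.00882). The call of Mgam ended without control CT5 replicate 2 (0.116) or control CT9 replicate 2 (0.0688). That of G6pc ended without control CT5 replicate 3, control CT9 replicate 1 or control CT9 replicate 3 (0.0559 to 0.0698), and in the 8 libraries alone (0.328). Without the 5 libraries that stood apart, 3 more passed: sucrase-isomaltase Sis (log2 fold change and adjusted p of 0.65, 0.0127), the fructose transporter Slc2a5 (0.50, 0.00631) and the basolateral glucose transporter Slc2a2 (0.62, 0.0441). With all libraries Sis was at 0.66 (0.451), Slc2a5 at 0.51 (0.196) and Slc2a2 at 0.63 (0.386). These 3 genes were picked after their values were seen.

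**Figure D2:**
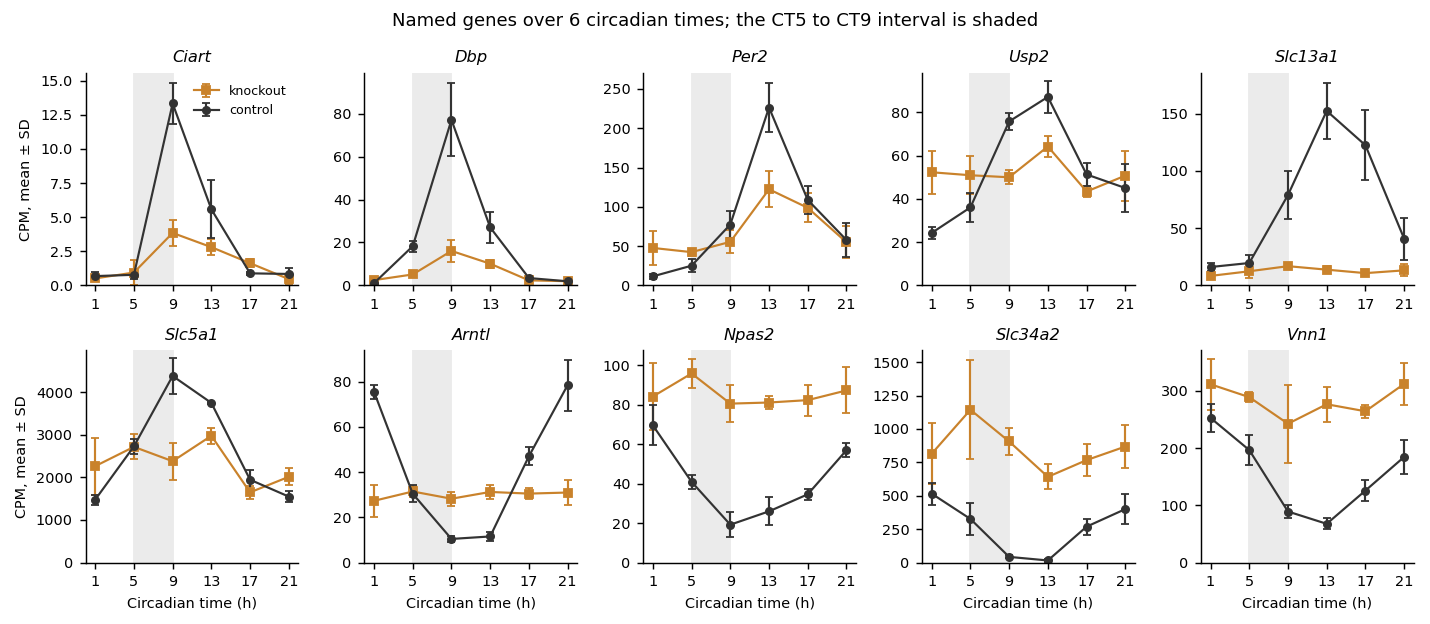
Group means of CPM ± SD over 6 circadian times for 10 genes, knockout (orange squares) and control (black circles), with 4 libraries a group and 3 in knockout CT9; the interval from CT5 to CT9 is shaded. Control Ciart and Dbp are highest at CT9, and control Slc34a2 and Vnn1 are lowest at CT13. Knockout means run from 8.25 to 16.7 CPM for Slc13a1 and from 27.3 to 31.4 CPM for Arntl.

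Solute carriers as a family were counted after these values were seen. Of 273 tested, 5 rose and 2 fell (2.56%, against 0.633% of all genes). Besides those above, the multivitamin transporter Slc5a6 was at 0.76 (0.0337, edgeR), the vitamin C transporter Slc23a1 at 0.71 (0.0353) and Slc17a4, of a family of anion transporters, at −1.28 (2.9e-05). Slc17a4 had 63.5, 62.8, 68.3 and 83.5 CPM at CT9 and 116, 214, 172 and 174 CPM at CT5. The median log2 fold change of the family was 0.05.

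Among genes that passed with a symbol and a mean of at least 5 CPM, the remaining ones with the largest rises whose groups did not overlap were Sult6b2, Nat8f5 and Ighv1-85. Sult6b2, of the sulfotransferase family, which adds sulfate to its substrates, had 12.7, 27.1, 16.3 and 32.3 CPM at CT9 and 1.13, 4.81, 4.97 and 3.63 CPM at CT5 (log2 fold change 2.58, SE 0.44, adjusted p = 4.0e-04, edgeR). Nat8f5, of the N-acetyltransferase 8 family, had 46.6, 56.5, 40.2 and 55.2 CPM at CT9 and 14.9, 13.6, 24.7 and 17.4 CPM at CT5 (1.49, adjusted p = 1.3e-05), and shares its strand with the overlapping Nat8f6. Ighv1-85, an immunoglobulin variable segment, had 52.5, 61.6, 11.5 and 10.8 CPM at CT9 and 2.26, 2.92, 3.32 and 4.17 CPM at CT5 (3.41, adjusted p = 0.0203). It has near-identical copies between which reads may have been split, and its call ended without any one of 6 libraries (control CT5 replicates 1 to 4, control CT9 replicates 1 and 2), where adjusted p was 0.0631 to 0.102, in the 8 libraries alone (0.199), in limma-voom (0.142) and with edgeR's older quasi-likelihood method (0.0544).

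The lower genes with the largest fold changes included Vnn1, Hsd17b2 and Pnp2, which encode enzymes. Vnn1, a pantetheinase that releases cysteamine and pantothenate, had 80.5, 95.4, 79.05 and 102 CPM at CT9 and 158, 216, 208 and 205 CPM at CT5 (log2 fold change −1.14, SE 0.14, adjusted p = 6.9e-07, edgeR). Hsd17b2, which oxidises estradiol and testosterone, had 25.3, 23.9, 22.7 and 36.9 CPM at CT9 and 52.4, 74.5, 63.4 and 64.4 CPM at CT5 (−1.23, adjusted p = 4.5e-05). Pnp2, a purine nucleoside phosphorylase, had 59.7, 56.9, 57.3 and 74.7 CPM at CT9 and 135, 146, 126 and 139 CPM at CT5 (−1.13, adjusted p = 1.4e-05). Its close paralog Pnp, named after its values were seen, was at −0.81 (5.8e-04), and the 2 can share reads. The groups of these 4 genes did not overlap. Aldh18a1, which makes the precursor of proline, had 138, 133, 156 and 169 CPM at CT9 and 222, 286, 251 and 239.7 CPM at CT5 (−0.75, adjusted p = 1.4e-05). It alone passed among 14 measured genes of the amino acid response, of which 11 were above 0 and 3 below (median 0.24).

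The lower genes also held Dab1, Bok, Ypel2 and Col5a3, which the fold change rule picked. Dab1, an adaptor of reelin receptors, had 46.9, 32.8, 34.5 and 45.5 CPM at CT9 and 94.1, 124, 93.4 and 106 CPM at CT5 (log2 fold change −1.39, SE 0.16, adjusted p = 9.9e-08, edgeR). Bok, of the BCL-2 family of cell death regulators, had 5.06, 6.11, 4.95 and 9.76 CPM at CT9 and 19.2, 26.6, 20.8 and 21.96 CPM at CT5 (−1.78, adjusted p = 2.7e-04). Ypel2 was at −1.50, adjusted p = 0.00173, with control CT5 replicate 1 (14.5 CPM) close to the CT9 libraries (6.96 to 12.8 CPM), and its call ended in the 8 libraries alone (0.0840). The chain of type V collagen encoded by Col5a3 was at −1.27, adjusted p = 0.00332, with 2.71 to 7.03 CPM at CT9 and 9.05 to 13.1 CPM at CT5, and the long non-coding AC132455.2 at −1.17, adjusted p = 0.00173. Pbld1 (−1.31, adjusted p = 0.0128) and the transporter gene Flvcr2 (−1.57, adjusted p = 0.0404) lost their calls without single libraries: Pbld1 without control CT5 replicate 2 or 3 or control CT9 replicate 1, 2 or 3, and Flvcr2 without these or control CT5 replicate 4. The call of Pbld1 also ended in the 8 libraries (0.0806) or the 24 control libraries (0.0732) alone. That of Flvcr2 ended in the 24 control libraries alone (0.104), without the filter on low counts (0.135) and in limma-voom (0.0707).

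Other genes that passed were picked after their values were seen, as examples of metabolism. Got1 (0.59, adjusted p = 0.00723), Glud1 (0.57, adjusted p = 0.0255) and Me2 (0.43, adjusted p = 0.0314), enzymes that handle aspartate, glutamate and malate, rose (edgeR). So did the clock repressor gene Cipc (0.61, adjusted p = 0.012) and the glycosyltransferases Gcnt3 (0.98, adjusted p = 0.00173) and Fut4 (0.89, adjusted p = 1.1e-04). Ddc, which makes serotonin and dopamine from their precursors, had 145, 112, 119 and 185 CPM at CT9 and 234, 275, 241 and 248 CPM at CT5, and fell (−0.83, adjusted p = 3.5e-04). Aoc1, the diamine oxidase that degrades histamine, had 838, 731, 724 and 836 CPM at CT9 and 1057, 1292, 1407 and 1167 CPM at CT5, and fell (−0.65, adjusted p = 0.00675). Sprr2a1, which has near-identical copies, had 1.69, 1.36, 0.16 and 1.515 CPM at CT9 and 5.09, 4.64, 5.71 and 8.89 CPM at CT5 (−2.36, adjusted p = 0.00631). Control CT9 replicate 3 lay below the limit that a count of 0 allows, so this fold change is imprecise.

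Few lipid genes passed. Of 24 genes of fat absorption, Dgat2, which makes triglycerides, rose, with 378, 516, 315 and 473 CPM at CT9 and 263, 189, 287 and 225 CPM at CT5 (0.80, adjusted p = 0.0205, edgeR). Of 24 genes of sterol and fatty acid synthesis, Msmo1, an enzyme of cholesterol synthesis, rose, with 91.1, 118, 87.2 and 87.7 CPM at CT9 and 55.6, 64.1, 69.6 and 62.98 CPM at CT5 (0.60, adjusted p = 0.00872). In that list 9 members were higher at an unadjusted p under 0.05 and none lower, against 4.8% and 4.17% of all genes, and the median was 0.28. The call of Dgat2 ended without control CT5 replicate 2 or 4 or control CT9 replicate 2 or 4 (0.0656 to 0.158) and in the 8 libraries alone (0.0812), and that of Msmo1 without control CT9 replicate 2 (0.0913). None of 20 genes of fatty acid oxidation passed (median −0.08, 1 at an unadjusted p under 0.05), with the lowest adjusted p at 0.449 for Cpt1a, the enzyme by which fatty acids enter mitochondria. None passed among 6 genes of bile acid transport (median −0.10, 1 at an unadjusted p under 0.05) or 30 of xenobiotic metabolism (−0.08, 2 higher and 3 lower). The drug pump Abcb1a, with 772, 648, 598 and 568 CPM at CT9 and 294, 351, 361 and 482 CPM at CT5, was at 0.80, adjusted p = 0.165, and passed without the 5 libraries that stood apart (0.78, 0.0479). Abcg2, of the same list, passed as lower in that fit (−0.33, adjusted p = 0.0327, edgeR).

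In some lists nearly all members leaned one way while at most 1 passed. All 20 genes of protein folding in the endoplasmic reticulum (ER) were above 0 (median 0.32, range 0.00 to 0.69), against 52.1% of all genes. Of them 13 were higher at an unadjusted p under 0.05, as were 4.8% of all genes. Herpud1, which acts in disposal of misfolded ER proteins, rose, with 143, 188, 149 and 181 CPM at CT9 and 104, 93.02, 118 and 112 CPM at CT5 (0.63, adjusted p = 0.00872, edgeR). The ER chaperone gene Hspa5 had 566, 652, 538 and 1220 CPM at CT9 and 602, 424, 506 and 460.4 CPM at CT5, with control CT9 replicate 4 far above the rest, and did not pass (0.58, adjusted p = 0.207). The summed level of the list was 4171 to 4663 CPM in 3 CT9 libraries and 6594 CPM in control CT9 replicate 4, against 3604 to 4149 CPM at CT5. The heat shock list also summed highest in that library (5481 CPM, against 3093 to 3391 CPM in the other CT9 and 2884 to 3135 CPM in the CT5 libraries), and none of its 21 genes passed (median 0.25, 8 higher at an unadjusted p under 0.05). Without control CT9 replicate 4 the median of the ER list was 0.19 and that of the heat shock list 0.10, and Herpud1 still passed. The call of Herpud1 ended without control CT5 replicate 2 (0.0828) or control CT9 replicate 2 (0.0593).

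Over all genes 52.1% were above 0, 4.8% were higher and 4.17% lower at an unadjusted p under 0.05, and 3.98% lay wholly higher at CT9. Of 18 genes of DNA replication, none passed, while 17 were above 0, 11 had an unadjusted p under 0.05 and 9 did not overlap between the times (median 0.36). Their summed level was 616 to 690 CPM at CT9 and 498 to 572 CPM at CT5, ranges that did not overlap. Mcm6, a subunit of the replicative helicase, had 86.9, 79.8, 88.5 and 93.9 CPM at CT9 and 75.5, 62.9, 62.3 and 71.5 CPM at CT5 (0.36, adjusted p = 0.0734, edgeR), and passed without the 5 libraries that stood apart (0.35, 0.0122), as did Mcm4 (0.42, 0.0264). Of 18 genes of mitosis none passed, 1 was lower at an unadjusted p under 0.05, and the median was 0.02. All 16 genes of ribosome biogenesis were above 0 (median 0.26, 7 higher at an unadjusted p under 0.05). Gnl3 (nucleostemin) rose, with 35.1, 45.8, 47.6 and 52.02 CPM at CT9 and 31.3, 33.5, 31.7 and 29.9 CPM at CT5 (0.51, adjusted p = 0.012). Its call ended without control CT5 replicate 4 (0.0624) or control CT9 replicate 4 (0.0693), without the filter on low counts (0.0841) and in the 8 libraries alone (0.104), and it overlaps Pbrm1 on the opposite strand. Of 14 genes of the tight junction none passed, and 5 were lower at an unadjusted p under 0.05 (median −0.19). Occludin (Ocln), with 126, 115, 92.6 and 117 CPM at CT9 and 139, 154, 177 and 172 CPM at CT5, was at −0.51, adjusted p = 0.202, and passed as lower without the 5 libraries (−0.53, 0.00372).

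Among the other lists, the glucocorticoid list had 1 of 15 genes higher, which was Per1. None passed among 18 genes of protein digestion and amino acid transport (median 0.22, 6 higher and none lower at an unadjusted p under 0.05), 16 fasting and FOXO targets (0.10, none), 17 immediate early genes (−0.21, 1 lower) and 4 cold-inducible RNA-binding proteins (0.12, 1 higher). Over all genes 4.8% were higher and 4.17% lower at that unadjusted p. None passed among 24 interferon and MHC class I genes (0.22, 4 higher), 9 of MHC class II (0.31, none), 10 antimicrobial genes (0.12, none) and 10 of iron handling (0.06, 1 higher). Single libraries decided some of these medians: that of the interferon list was 0.01 without control CT9 replicate 1 and 0.13 without control CT5 replicate 2. The MHC class II median ran from 0.17 to 0.91 on leaving out control CT9 replicate 1 or 4 or control CT5 replicate 1 or 2, and the immediate early median from −0.36 to −0.04 on leaving out control CT9 replicate 1, 3 or 4 or control CT5 replicate 1 or 2. Rbm3, an RNA-binding protein induced by mild cold, had 176, 156, 168 and 139 CPM at CT9 and 102, 119, 114 and 112 CPM at CT5 and was the nearest of these to the threshold (0.51, adjusted p = 0.0661, edgeR). It was higher without the 5 libraries that stood apart (0.50, 0.00178). Slc3a1, a subunit of the cystine transporter, had 242, 342, 223 and 301 CPM at CT9 and 213, 182, 215 and 191 CPM at CT5 (0.47, adjusted p = 0.168), and was also higher without them (0.46, 0.0215). Enpep, of the list of protein digestion and amino acid transport, was higher in that fit as well (0.61, adjusted p = 4.8e-04, edgeR). Rbm3, Slc3a1 and Enpep were picked after their values were seen, by their p.

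**Figure D3:**
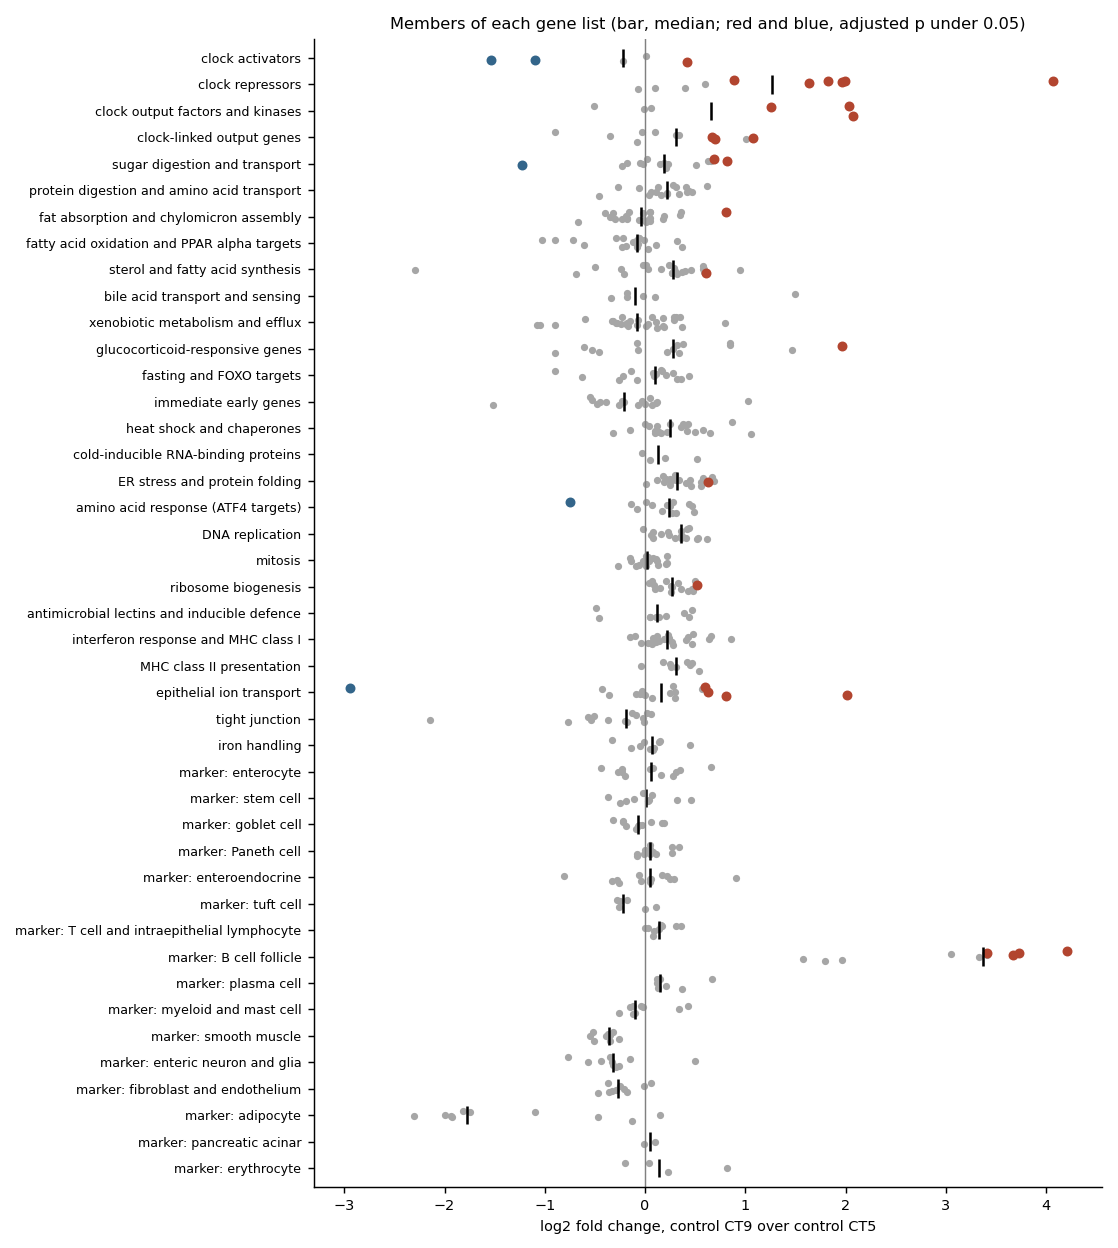
Log2 fold changes of control CT9 over control CT5 for the measured members of 43 gene lists; each point is a gene, red points rose and blue points fell at an adjusted p under 0.05 (edgeR), and the bar is the list's median. Clock repressors reach 4.07 for Ciart, the B cell follicle list lies at 1.57 to 4.21 through 1 library, and medians of most other lists lie close to 0.

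The labelled tissue showed the enterocyte markers at high level: their sum was 30530 to 40030 CPM at CT9 and 28880 to 33670 CPM at CT5, and none of 12 passed (1 higher at an unadjusted p under 0.05, edgeR). No member passed in the lists of stem, goblet, Paneth, enteroendocrine, tuft, T, plasma, myeloid and red blood cells, where at most 1 gene a list had an unadjusted p under 0.05. Over all genes 52.1% were above 0 and 4.17% were lower at an unadjusted p under 0.05. Smooth muscle markers lay below 0 in 10 of 10 genes (median −0.37), with none passing and 1 lower at an unadjusted p under 0.05. Their sum was 953 to 1852 CPM at CT9 and 1713 to 2195 CPM at CT5, lowest in control CT9 replicate 1. Acta2, smooth muscle actin, had 187, 322, 326 and 287 CPM at CT9 and 322, 432, 426 and 420.1 CPM at CT5 (−0.51, adjusted p = 0.473). Markers of fibroblasts and endothelium lay below 0 in 9 of 10 (median −0.27, 3 at an unadjusted p under 0.05) and those of enteric neurons and glia in 9 of 10 (−0.32, 2). Without control CT9 replicate 1 the median was −0.22 for smooth muscle and −0.12 for neurons and glia, and without control CT5 replicate 2 that of fibroblasts and endothelium was −0.16. The adipocyte list had a median of −1.78: Adipoq, the adiponectin gene, had 0, 5.94, 7.19 and 0 CPM at CT9 and 6.41, 11.5, 14.4 and 14.5 CPM at CT5, with 2 CT9 libraries at 0, and did not pass (0.71, edgeR). Of 12 pancreatic acinar genes 2 were measured. The part of tissue makeup in the genes that fell was not tested.

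The B cell follicle list gave 4 of 10 genes higher, all through control CT9 replicate 1. The B cell factor gene Pax5 had 29.7, 0.848, 0.639 and 0.673 CPM at CT9 and 0.754, 0.344, 0.921 and 0.907 CPM at CT5 (3.41, adjusted p = 0.012, edgeR). The receptor genes Fcer2a (3.73, adjusted p = 0.012) and Cr2 (3.67, adjusted p = 0.0439) and the antibody gene Ighd (4.21, adjusted p = 0.0231) showed the same single high library. Without it none passed, and the values were −0.01 for Pax5, 0.73 for Fcer2a, 0.81 for Cr2 and 0.83 for Ighd. None of the 4 passed in limma-voom (0.578 to 0.869) or in the 8 libraries alone (0.489 to 0.561). Plasma cell genes, which summed to 5541 to 9178 CPM at CT9 and 6096 to 7874 CPM at CT5, overlapped.

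**Figure D4:**
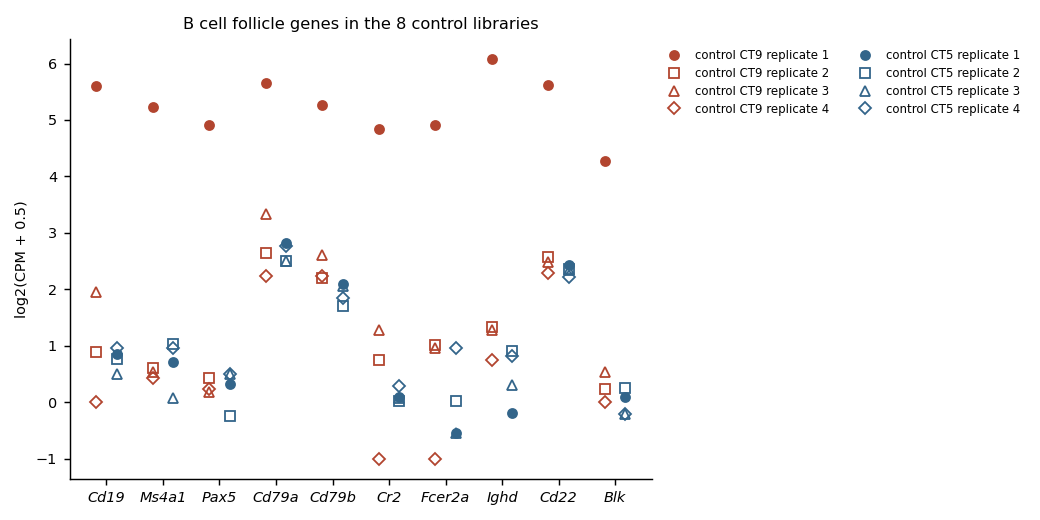
Log2 of CPM + 0.5 for the 10 measured B cell follicle genes in the 4 CT9 (red) and 4 CT5 (blue) control libraries. Control CT9 replicate 1, the filled red circles, lies above the other 7 libraries in each gene.

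Group means at all 6 circadian times in control were set beside the interval. The genes were chosen by their CT9 and CT5 values, which partly fixes where their means can be highest or lowest. The counts that follow are therefore a description. Of the 50 genes that rose, the group mean was highest at CT9 in 24, at CT13 in 24 and at CT17 in 2, and lowest at CT1 in 34. Of the 49 that fell, it was lowest at CT9 in 29, at CT13 in 18 and at CT17 in 2, and highest at CT1 in 23 and at CT21 in 13. Ciart belonged to the first kind, with 0.773 ± 0.319 CPM at CT5, 13.3 ± 1.48 at CT9 and 5.57 ± 2.13 at CT13 (SD, n = 4 each). Sult6b2 had 3.64 ± 1.77 CPM at CT5, 22.1 ± 9.18 at CT9 and 117 ± 14.1 at CT13, and Slc13a1 had 19.5 ± 6.75, 78.8 ± 20.7 and 152 ± 24.3 CPM. Slc34a2 ran the other way, with a mean of 516 ± 83.3 CPM at CT1 and 326 ± 122 CPM at CT5, against 42.3 ± 10.96 CPM at CT9 and 15.5 ± 8.97 CPM at CT13. Nr1d1, which did not pass over the interval, had means of 32.5 ± 5.599 CPM at CT1, 142 ± 12.5 at CT5, 135 ± 38.2 at CT9 and 37.3 ± 8.88 at CT13, so that its 2 highest means were at CT5 and CT9. No test was made over these further times.

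The knockout libraries of the same 2 times give the change in the other genotype. In them 2 genes passed (0.0128%), Ciart and Dbp, both higher, and none fell; 607 genes (3.88%) had an unadjusted p under 0.05, and DESeq2 called 7 higher and 7 lower. Ciart had 4.16, 4.601 and 2.77 CPM in knockout CT9 and 0.178, 0.726, 0.566 and 2.29 CPM in knockout CT5 (2.04, adjusted p = 0.0226, edgeR). Dbp had 18.7, 19.1 and 10.3 CPM in knockout CT9 and 4.46, 5.08, 5.09 and 5.71 CPM in knockout CT5 (1.66, 8.4e-05). Of the 50 genes that rose in control, 32 had the same sign in the knockout, 49 a smaller change, and their median was 0.12. Of the 49 that fell in control, 46 had the same sign, 49 a smaller change, and their median was −0.16. These genes were chosen by their size in control, so these counts are a description.

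The difference between the 2 changes, control minus knockout, was tested directly and passed for 3 genes (0.0192%). Arntl had 26.1, 26.7 and 31.8 CPM in knockout CT9 and 34.6, 29.03, 30.7 and 31.2 CPM in knockout CT5, which overlap, and the difference was −1.38 (SE 0.21, adjusted p = 5.3e-04, edgeR). These counts cover the whole gene and tissue, so they do not show the deletion itself. Slc34a2 had 1021, 819.8 and 879 CPM in knockout CT9 and 1605, 941, 1262 and 769 CPM in knockout CT5, all above the control libraries of both times, with a difference of −2.61 (SE 0.39, 5.3e-04). Usp2 had 46.7, 50.01 and 53.2 CPM in knockout CT9 and 40.1, 49.4, 61.7 and 52.6 CPM in knockout CT5, with a difference of 1.10 (SE 0.22, 0.0455), the only gene with a positive difference that passed (0.00639% of all genes). No gene passed in the direction of Usp2 with upper quartile scaling, without the filter on low counts, or on leaving out any 1 library other than control CT5 replicate 1, control CT5 replicate 4 or knockout CT5 replicate 1. For Dab1 the difference was −1.11 (0.0545), for Nat8f5 1.37 (0.226), for Slc5a1 0.87 (0.184) and for Per3 1.08 (0.335), none of which passed. At an unadjusted p under 0.05, the difference was marked for 34 of the 50 and 41 of the 49, and for 3.94% of all genes. The 99 genes were chosen by the control change that this difference contains, so nothing is read from these shares.

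**Figure D5:**
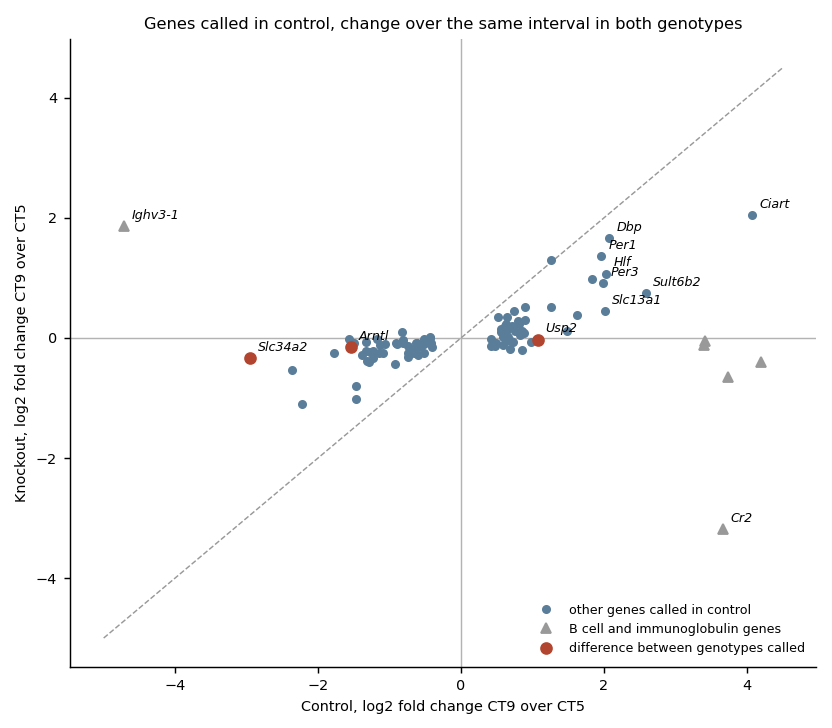
Log2 fold change of CT9 over CT5 in knockout (vertical) against that in control (horizontal) for the 99 genes that passed in control; red points are Arntl, Slc34a2 and Usp2, whose difference passed, and triangles are B cell and immunoglobulin genes. Most points lie nearer to 0 on the vertical axis than on the horizontal one; the genes were chosen by their control change.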

How the data were processed

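Jejunal RNA was isolated with the NucleoSpin RNA kit, and the TruSeq Stranded mRNA kit was used for library preparation, per the labels' protocols. The authors deposited 1 table of raw counts per gene for the series. The submitters' processing notes name the mm10 build, the aligner STAR 2.7.5c, the counter featureCounts 1.4.6, and also DESeq2 1.22.0, SAMtools 1.3.1, Trimmomatic 0.39 and FastQC 0.11.5. Not given in the sources used here are their settings, the annotation release, and how strand and multi-mapping reads were treated. With unknown strand handling, overlapping genes on opposite strands may share reads.

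The table listed 55401 gene IDs, and 33965 of them were counted at least once. Symbols and gene coordinates came from GENCODE M21 (54349 IDs matched with their version, 792 without it, 260 not matched). Of 48 libraries in the labels, 47 had a column, in 12 groups by genotype and time. Genes were kept by edgeR's filterByExpr (minimum count 10, minimum total 15, smallest group 3), which left 15646. Libraries were scaled by TMM, and a model with 1 mean for each group took in the 47 libraries together, in edgeR 4.0.16 and R 4.3.3 (robust quasi-likelihood, 35 residual degrees of freedom). The contrasts were CT9 minus CT5 in control, the same in the knockout, and their difference, each adjusted by Benjamini-Hochberg over all genes with a threshold of 0.05. Fold changes use edgeR's prior count of 0.125. The SE beside them is not given by edgeR's test. It was taken as the size of the fold change over the square root of the test's F, so it is approximate. Depth was 5.12 to 6.06 M counts in the 8 control libraries.

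The genes described were the 12 highest and 12 lowest fold changes among genes that passed, with a symbol, a mean of at least 5 CPM and groups that did not overlap. To these were added all clock genes of the first 3 lists, up to 4 members that passed in every other list, and the 5 smallest p of the difference among genes that passed in control. Some genes that this rule takes in are not reported here. The samples and the 43 gene lists were chosen with earlier results of these data known. DESeq2 1.42.0, limma-voom (limma 3.58.1), other scalings and filters, fits to fewer libraries and fits without each library were alternatives. Replicate numbers follow accession order and pair no samples.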

Additional observations from a re-analysis of the deposited data

Results flagged for a closer look

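In 11 of the 108 groups of 4 libraries examined (10.2%), 1 library lay far from the other 3 by Dixon's gap ratio. Chance marks about 1 in 20 independent groups. Pax5, Fcer2a, Ighd and Cr2 are described only because control CT9 replicate 1 made them pass, which fixed their marks in advance. The 10.2% therefore cannot be set against that rate. In the B cell follicle genes this was control CT9 replicate 1, with 29.7 CPM for Pax5, 29.7 CPM for Fcer2a, 66.8 CPM for Ighd and 28.2 CPM for Cr2, where the other CT9 libraries did not exceed 0.848, 1.53, 2.04 and 1.92 CPM. The same library had the highest Nr1d1, with 192 CPM against 111 to 119 CPM in the other CT9 libraries. Control CT9 replicate 2 was highest in Nampt (152 CPM, against 124 to 129 CPM) and in Msmo1 (118 CPM, against 87.2 to 91.1 CPM). Control CT9 replicate 4 was highest in Clock (102 CPM, against 86.9 to 89.1 CPM) and in Pnp2 (74.7 CPM, against 56.9 to 59.7 CPM). Among CT5 libraries, replicate 2 was lowest in Mgam (2933 CPM, against 3753 to 3862 CPM) and replicate 3 highest in Slc20a1 (40.0 CPM, against 30.6 to 31.9 CPM).

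The change over the interval differed between control and knockout for 3 genes in edgeR's test of the difference. The differences were −2.61 for Slc34a2 (adjusted p = 5.3e-04), −1.38 for Arntl (adjusted p = 5.3e-04) and 1.10 for Usp2 (adjusted p = 0.0455). The call of Usp2 was the least stable. It ended with upper quartile scaling, without the filter on low counts and on leaving out most single libraries.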

How the results depend on the processing

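No paired analysis was possible because the labels carry no replicate numbers that the groups share. For that change 18 other settings were tried. Of 45 genes described that passed in control, 27 passed under each setting that gave them an adjusted p, and 18 lost the call under 1 or more. The 27 include Bhlhe41, which had no adjusted p in DESeq2 or with a minimum count of 30. The value of 1 gene changed sign: Pax5 ranged from −0.014, without control CT9 replicate 1, to 3.80, without control CT9 replicate 3. Other scalings moved the median of all genes by less than 0.1. The 50 higher and 49 lower genes in control became 158 and 172 without the 5 libraries that stood apart, and 26 to 85 and 34 to 58 on leaving out single libraries. In the knockout, 2 higher and 0 lower genes became 7 and 7 with DESeq2, 4 and 1 without the 5 libraries, and 1 to 3 and 0 to 6 without single libraries (6 lower without knockout CT5 replicate 1, 5 without knockout CT5 replicate 3). With edgeR's older quasi-likelihood method, an alternative chosen after seeing the data, 1 gene was higher in the knockout. For the difference, 1 higher gene (Usp2) and 2 lower ones (Arntl and Slc34a2) became 9 and 8 with DESeq2 and 12 and 14 without the 5 libraries. No gene was higher there with upper quartile scaling (0) or without the filter on low counts (0), and leaving out single libraries gave 0 to 1 higher and 2 to 4 lower genes (4 without knockout CT9 replicate 3). The cause of these moves was not tested. DESeq2 gave no adjusted p for Bhlhe41, Pax5, Fcer2a, Ighd and Cr2, and a minimum count of 30 left them out. Genes near the limit that a count of 0 allows, such as Ciart at CT5, have imprecise fold changes at this depth.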
